A study of Homo sapiens with 12 samples.

Results

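The genes described here are the uroplakins UPK1A, UPK1B, UPK2, UPK3A and UPK3B and the luminal urothelial transcription factors GATA3, PPARG, FOXA1, ELF3 and GRHL3, 10 of the 23064 gene symbols counted. They were chosen by name, and for each symbol the transcript row with the most counts was used. RNA was sequenced from the established human bladder carcinoma cell lines CAL-29 and 5637, harvested on day 3 after transfection with a control siRNA (siCtrl) or an siRNA against KMT9α (siKMT9α), with 3 libraries in each of the 4 groups. KMT9 is a histone methyltransferase whose catalytic subunit KMT9α is encoded by N6AMT1. Only 1 siRNA against KMT9α was sequenced, so effects of its sequence on other genes cannot be told apart from those of lower KMT9α. The lines were grown in different media and transfected with different reagents and different siRNA concentrations. A difference between lines cannot be told apart from these. Each line is 1 cell line and not a sample of a tumor type, and nothing in the labels says that the 3 libraries of a group came from separate cultures, so p-values measure the spread between libraries, which may be technical. The counts kept per library totaled between 24479488 and 35148657.5. CAL-29 siCtrl replicate 1 stood apart from the other libraries of its group, since comparing counts over genes gave a chi-square, divided by its degrees of freedom, of 8.18 with replicate 2 and 12.3 with replicate 3. The other 10 pairs within groups gave between 2.25 and 3.998. Without it the call changed for UPK1A between the lines and for the difference of responses of FOXA1, whose values are given with those results, and for no other member.

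The urothelium lines the bladder and is built of basal, intermediate and superficial umbrella cells. Uroplakins are membrane proteins of the umbrella cells: the tetraspanin UPK1A pairs with UPK2 and the tetraspanin UPK1B with UPK3A or UPK3B, and the pairs assemble into the plaques that make the luminal surface a permeability barrier. GATA3, the nuclear receptor PPARG, the forkhead factor FOXA1, the ETS factor ELF3 and the Grainyhead factor GRHL3 are transcription factors of luminal and terminal urothelial differentiation, and most of them serve as markers of the luminal class of bladder cancer.

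In the GENCODE annotation on GRCh37, the canonical transcripts of the uroplakins lay at chr19:36157419-36169383 (UPK1A), chr3:118892445-118923990 (UPK1B), chr11:118827008-118829269 (UPK2), chr22:45680830-45691755 (UPK3A) and chr7:76139869-76145839 (UPK3B), all on the plus strand. Those of the factors lay at chr10:8096651-8117161 (GATA3), chr3:12330569-12475843 (PPARG), chr1:201979715-201986311 (ELF3) and chr1:24645847-24681808 (GRHL3) on the plus strand and at chr14:38058757-38064454 (FOXA1) on the minus strand. Each value is 1 count for a whole annotated transcript, coding sequence and UTRs together, and the sources used here do not say whether reads in introns were included. Exons of UPK1A-AS1 covered 21.4% of the UPK1A exon bases from the opposite strand, and 17.1% of the bases of UPK3B lay in stretches at least 95% identical to UPK3BP1 or its readthrough transcript. An unnamed gene on the same strand overlapped 14.5% of the exon bases of ELF3. The sources used here do not say whether strand was used in counting, so reads of these stretches are uncertain between the genes.

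The start-site regions of the 5 members with a changed level in CAL-29 or, for UPK3B, in 5637 are shown. Of these genes, 2 moved the same way in both lines, 1 moved in opposite directions and the other 2 passed the test in 1 line only. The regions are RefSeq sequences on GRCh38.p14, 250 bases before to 50 bases after a start site, and 8 of the 10 members had such an entry, 19 entries in all. The entries of GATA3 and PPARG, which also passed in 5637 only, are not shown. Both strands were searched, and capitals mark the matches. The motif of GATA factors was searched as AGATAA, that of forkhead factors as TGTTTAC, that of ETS factors as AGGAAG and that of Grainyhead factors as AACNNGTT. The half-site of nuclear receptors such as PPARG was AGGTCA, the GC box was GGGCGG and the TATA box was TATAAA.
UPK1B: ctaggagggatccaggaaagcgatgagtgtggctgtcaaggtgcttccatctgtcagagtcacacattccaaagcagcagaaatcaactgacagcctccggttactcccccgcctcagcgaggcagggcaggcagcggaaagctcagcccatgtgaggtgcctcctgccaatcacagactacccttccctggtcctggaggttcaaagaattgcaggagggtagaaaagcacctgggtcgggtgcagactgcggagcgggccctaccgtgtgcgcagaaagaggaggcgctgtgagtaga
UPK3B: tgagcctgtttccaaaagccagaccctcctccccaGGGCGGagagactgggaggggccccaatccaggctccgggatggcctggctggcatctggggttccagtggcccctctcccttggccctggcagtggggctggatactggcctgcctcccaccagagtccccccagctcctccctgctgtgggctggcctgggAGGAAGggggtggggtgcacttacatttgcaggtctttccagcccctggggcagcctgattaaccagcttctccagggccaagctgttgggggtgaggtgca
FOXA1: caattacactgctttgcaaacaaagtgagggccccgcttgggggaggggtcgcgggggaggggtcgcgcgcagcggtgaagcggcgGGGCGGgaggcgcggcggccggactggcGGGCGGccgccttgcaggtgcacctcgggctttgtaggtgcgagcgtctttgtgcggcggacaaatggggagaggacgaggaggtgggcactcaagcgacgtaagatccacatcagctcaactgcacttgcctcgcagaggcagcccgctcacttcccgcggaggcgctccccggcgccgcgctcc
ELF3: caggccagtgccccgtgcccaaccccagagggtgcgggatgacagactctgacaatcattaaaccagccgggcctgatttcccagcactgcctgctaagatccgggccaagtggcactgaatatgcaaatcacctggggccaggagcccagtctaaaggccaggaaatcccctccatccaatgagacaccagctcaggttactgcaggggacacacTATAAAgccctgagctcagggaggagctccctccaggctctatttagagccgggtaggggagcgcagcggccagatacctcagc
GRHL3: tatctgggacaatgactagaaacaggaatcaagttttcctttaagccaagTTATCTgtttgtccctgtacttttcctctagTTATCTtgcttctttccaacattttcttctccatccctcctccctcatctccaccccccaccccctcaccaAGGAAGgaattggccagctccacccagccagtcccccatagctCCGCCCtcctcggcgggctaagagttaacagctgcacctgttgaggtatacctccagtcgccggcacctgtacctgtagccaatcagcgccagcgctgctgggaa
The 5 regions are chr3:119173348-119173647 (UPK1B), chr7:76510302-76510601 (UPK3B), chr14:37595200-37595499 (FOXA1, minus strand), chr1:202010337-202010636 (ELF3) and chr1:24319107-24319406 (GRHL3, the upstream one of 2 entries). UPK1B held none of the motifs, ELF3 a TATA box beginning 34 bases before the start site, and FOXA1 a pair of GC boxes within a sequence of 69.3% G and C. UPK3B held 1 GC box and 1 ETS motif, and GRHL3 a pair of GATA motifs, 1 ETS motif and 1 GC box. Over all 19 entries the ETS motif was found in 9, against 33.6% of the 35116 promoters in the reference, and the forkhead motif in 0, against 3.4%. Some entries of PPARG overlap each other. A match is a description of letters and not a binding site, and the data hold no measurement of binding.

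The target gene was lower under siKMT9α in both lines. N6AMT1 stood at 11.1, 9.95 and 9.40 CPM (counts scaled to library size with TMM factors) in the 3 CAL-29 siCtrl libraries and at 2.78, 2.87 and 1.94 CPM under siKMT9α, and in 5637 at 13.7, 13.4 and 13.5 CPM against 3.85, 2.26 and 2.64 CPM. The groups did not overlap in either line, and the log2 fold changes were −2.0 (SE 0.15) in CAL-29 and −2.22 (SE 0.12) in 5637. The epithelial markers EPCAM, CDH1 and the simple keratins were read in both lines, and the summed level of 8 markers of blood and endothelial cells was between 4.25 and 16.4 CPM over the 12 libraries, with PECAM1 at 0.044 CPM or less on average in every group. Of these 8 markers 3 were tested in each line: CDH5 (log2 2.45) and CD68 (1.12) rose in CAL-29. In 5637 CDH5 was called lower, from between 1.07 and 1.44 CPM to between 0.019 and 0.10 CPM, which is 3 counts or fewer per library, so no fold is given.

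Under siCtrl, UPK1B and UPK2 were higher in CAL-29 than in 5637, and UPK3B was at a like level in both lines. To compare levels between genes, CPM was divided by the exon length of the canonical transcript in kilobases (kb). In CAL-29 the order was UPK1B (148 ± 9.89 CPM per kb, SD, n = 3), UPK3B (123 ± 2.40), ELF3 (67.5 ± 2.59), GATA3 (28.8 ± 0.50), FOXA1 (18.4 ± 0.48), PPARG (13.2 ± 0.27), UPK2 (8.40 ± 0.53) and GRHL3 (5.45 ± 0.34), and none of these neighbors overlapped in their libraries. UPK1A (0.54 ± 0.29) and UPK3A (0.49 ± 0.20) came last and did overlap. In 5637 the order was UPK3B (135 ± 8.80), PPARG (49.6 ± 0.36), ELF3 (49.5 ± 0.86), GATA3 (12.3 ± 0.16), FOXA1 (3.28 ± 0.22), UPK1B (2.87 ± 0.29), UPK2 (0.70 ± 0.079) and GRHL3 (0.44 ± 0.080), with PPARG and ELF3 overlapping, as did FOXA1 and UPK1B. The order is a description, since the coding transcripts of a gene differ in length. They run from 1.04 to 2.25 kb for UPK3B, 0.401 to 4.064 kb for PPARG and 0.769 to 4.994 kb for ELF3. Any reads from introns would not scale with exon length.

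**Figure D1:**
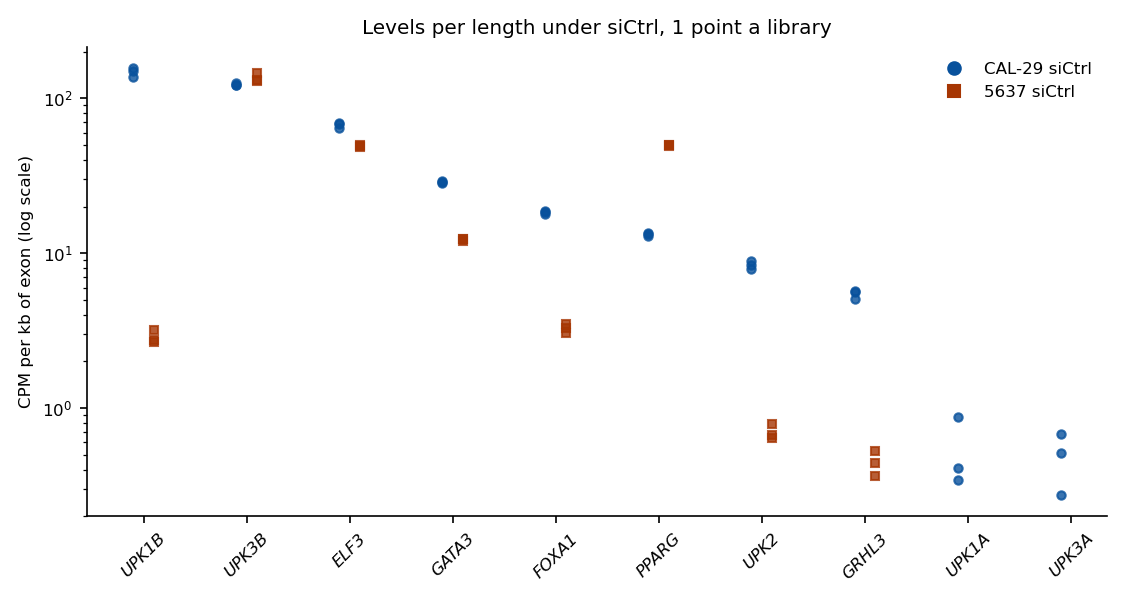
Level of each gene under siCtrl in CPM per kb of exon (log axis), 1 point per library, with CAL-29 as circles and 5637 as squares. UPK3B was near 123 and 135 CPM per kb in the 2 lines while UPK1B stood at 148 in CAL-29 and 2.87 in 5637, and UPK1A and UPK3A, at or under 3 counts per library in 5637, are not drawn for that line.

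Between the siCtrl libraries of the lines, 6 members were higher in CAL-29 and 1 lower, of 9 tested at an unadjusted p below 1e-06 in edgeR's quasi-likelihood test. Of all genes tested, 26.8% were higher and 28.2% lower in CAL-29. Among the 7 that passed, the line difference was largest for UPK1B, a tetraspanin, at 317, 304 and 278 CPM in CAL-29 against 5.58, 5.42 and 6.49 CPM in 5637. This is a 51.4-fold higher level in CAL-29 (log2 5.68, SE 0.08, edgeR adjusted p = 1.04e-21). UPK2, the partner of UPK1A, was 11.9-fold higher in CAL-29 (log2 3.58, SE 0.18) but low in absolute terms, at 7.82, 7.36 and 8.36 CPM against 0.74, 0.62 and 0.60 CPM.

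UPK3B, which can take the place of UPK3A in the complex, was the uroplakin at a like level in both lines. It stood at 275, 274 and 284 CPM in CAL-29 and 296, 291 and 327 CPM in 5637, a log2 difference of −0.13 (SE 0.05) that did not pass the threshold. The difference was small, but the CAL-29 libraries were all below those of 5637. UPK1A gave 11, 29 and 14 counts in the CAL-29 libraries and 2, 0 and 0 counts in 5637, a counting ratio of 33.4 with an exact 95% interval of 8.81 to 283 (counting error only). UPK3A gave 7.5, 14.5 and 20 counts against 3, 1 and 1.5, a counting ratio of 9.45 (3.66 to 24.9), and did not pass the filter on low counts in that comparison.

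Of the factors, GRHL3 was 12.3-fold higher in CAL-29 (log2 3.62, SE 0.14), FOXA1 5.62-fold (2.49, SE 0.06), GATA3 2.36-fold (1.24, SE 0.05) and ELF3 1.37-fold (0.46, SE 0.05). PPARG ran the other way, at 23.6, 23.8 and 22.9 CPM in CAL-29 and 87.2, 88.0 and 88.5 CPM in 5637, a 3.73-fold lower level in CAL-29 (log2 −1.90, SE 0.05, edgeR adjusted p = 2.65e-17). All 5 factors passed, as did 55.1% of all genes tested. The libraries of the lines did not overlap for any of the 5, and the share of all genes without overlap was not counted. The call on ELF3 was lost without 5637 siCtrl replicate 1 (log2 0.43), without replicate 3 (0.45) or when tested against a 1.5-fold change. UPK1A, with a fitted log2 difference of 4.80 (SE 0.76) that depends on the prior count at this depth, did not pass, but did without CAL-29 siCtrl replicate 1 (log2 5.03), with no filter on low counts (4.78) and in the likelihood ratio test (4.80).

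With siKMT9α in CAL-29, the factors ELF3 and FOXA1 rose, and UPK1B and GRHL3 fell. Thus 2 of the 10 tested members were higher and 2 lower, where 14.9% of all tested genes were higher and 15.0% lower. ELF3, an epithelial ETS factor, went from 216, 212 and 201 CPM to 487, 476 and 486 CPM, with no overlap between the groups. Its fold change was 2.27 (log2 1.19, SE 0.05, edgeR adjusted p = 8.49e-15). FOXA1 went from 64.8, 66.1 and 62.7 CPM to 137, 139 and 141 CPM, again without overlap, a 2.12-fold rise (log2 1.09, SE 0.05, edgeR adjusted p = 2.55e-14).

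GRHL3 fell from 16.0, 16.1 and 14.3 CPM to 5.56, 5.0 and 6.02 CPM in the same line, a log2 fold change of −1.50 (SE 0.11, edgeR adjusted p = 8.30e-11). UPK1B fell from 317, 304 and 278 CPM to 213, 214 and 209 CPM, a smaller change of −0.52 (SE 0.05, edgeR adjusted p = 1.55e-08). All 3 knockdown libraries were below all 3 control libraries for both genes. The fall of UPK1B did not pass when tested against a 1.5-fold change.

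The other 6 members did not pass the threshold in CAL-29. The log2 fold changes were −0.38 (SE 0.12) for UPK2, 0.14 (SE 0.05) for UPK3B, −0.05 (SE 0.05) for GATA3 and 0.22 (SE 0.07) for PPARG. For GATA3, at 87.4, 88.8 and 90.4 CPM against 83.5, 86.3 and 90.5 CPM, the groups overlapped and the sign depended on the scaling (0.03 with total counts). UPK1A gave 9.5, 3 and 8.5 counts under siKMT9α against 11, 29 and 14 under siCtrl, and UPK3A 10, 13.5 and 4 against 7.5, 14.5 and 20. Both are read at this depth with counting ratios of 0.34 (0.19 to 0.57) and 0.57 (0.35 to 0.96), whose intervals cover counting error only. The fitted log2 fold change of UPK1A was −1.48 (SE 0.49), and −0.96 without CAL-29 siCtrl replicate 2. For UPK3A the groups overlapped, and for UPK1A, UPK2, UPK3B and PPARG they did not.

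**Figure D2:**
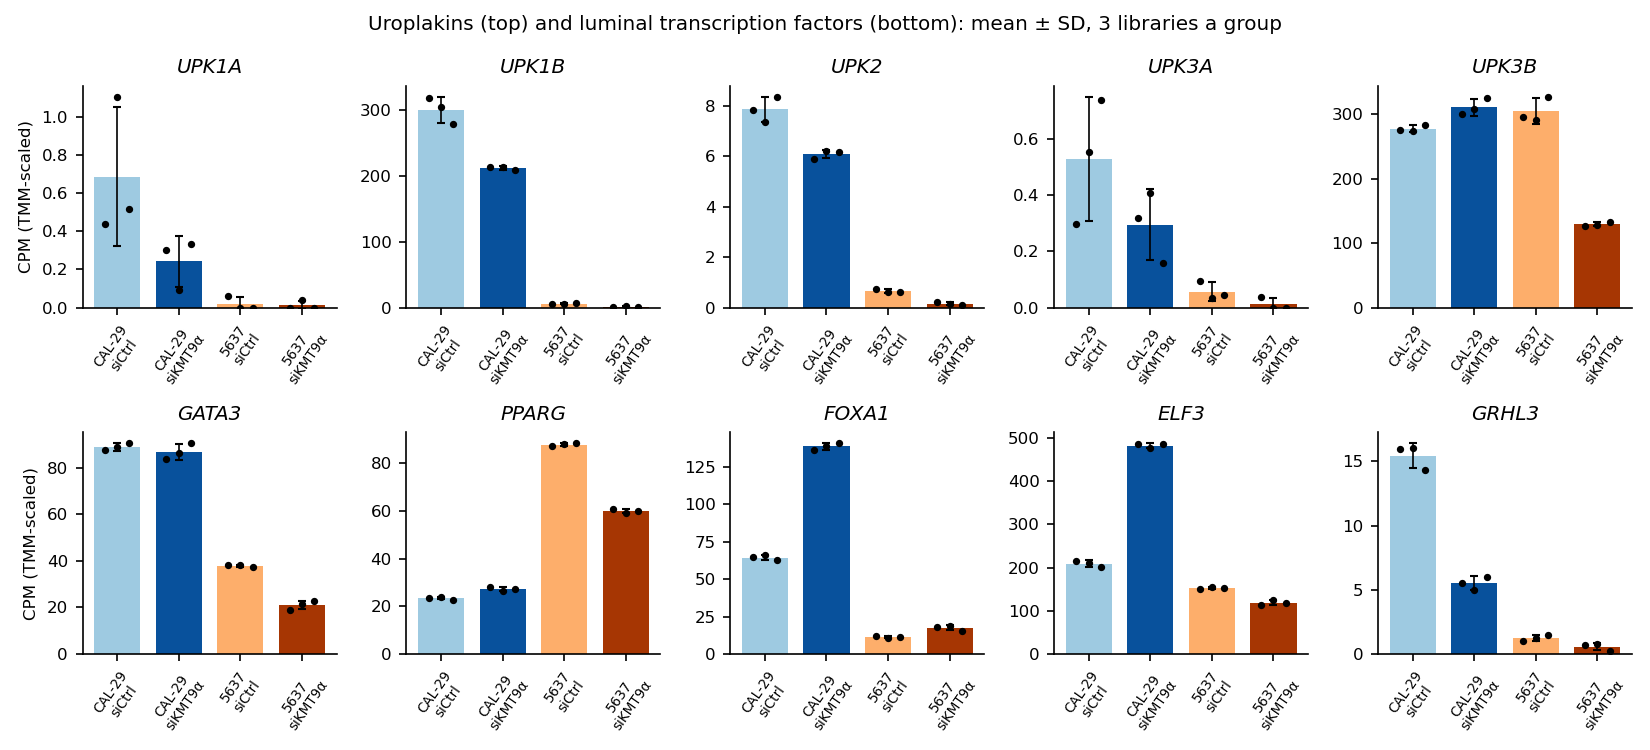
TMM-scaled CPM of each uroplakin (top row) and factor (bottom row) in the 4 groups, on linear axes from 0 that differ between panels, with bars for the mean, error bars for the SD and points for the 3 libraries. ELF3 rises to a mean of 483 CPM in CAL-29 and falls to 119 CPM in 5637, and UPK3B falls in 5637 to 130 CPM.

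In 5637 the direction was mostly downward: 5 of 8 tested members fell and 1 rose, where 17.5% of all tested genes were lower and 17.9% higher. UPK1A and UPK3A, at 3 counts or fewer in every library of this line, did not pass the filter, and no fold is given for them. The fall with the smallest adjusted p was that of UPK3B, from 296, 291 and 327 CPM to 127, 129 and 133 CPM, a 2.35-fold fall (log2 −1.23, SE 0.04, edgeR adjusted p = 6.40e-21). UPK1B fell from 5.58, 5.42 and 6.49 CPM to 0.94, 1.71 and 1.07 CPM, by 2.22 on the log2 scale (SE 0.18, edgeR adjusted p = 4.68e-12). For neither gene did the groups overlap.

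GATA3 fell from 38.0, 38.1 and 37.2 CPM to 19.0, 21.4 and 22.7 CPM (log2 −0.84, SE 0.06, edgeR adjusted p = 5.32e-13). PPARG fell from 87.2, 88.0 and 88.5 CPM to 61.0, 59.3 and 60.0 CPM (log2 −0.55, SE 0.04, edgeR adjusted p = 4.63e-13). ELF3 fell from 151, 156 and 154 CPM to 113, 125 and 118 CPM (log2 −0.38, SE 0.04, edgeR adjusted p = 5.66e-10). In all 3 genes every knockdown library was below every control library, and the share of all genes without overlap was not counted.

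FOXA1 was the member that rose in 5637, from 12.3, 10.8 and 11.5 CPM to 18.1, 18.6 and 15.5 CPM (log2 0.59, SE 0.08, edgeR adjusted p = 2.78e-07). This rise did not pass the threshold without 5637 siKMT9α replicate 2 (log2 0.54) nor with counts summed over transcripts (0.59). UPK2 and GRHL3 were also lower but rested on few reads, with UPK2 at 23.5, 19 and 21 counts against 5.5, 4 and 3 counts (log2 −2.03, SE 0.43) and GRHL3 at 31.5, 35.5 and 53.5 counts against 18.5, 23 and 8.5 counts (log2 −1.01, SE 0.31). Neither passed the threshold, although UPK2 did in edgeR's likelihood ratio test.

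The response to siKMT9α differed between the lines for 5 of the 10 members, all with a higher value in CAL-29, tested as the CAL-29 response minus the 5637 response. Over all genes tested, 8.62% had a higher response in CAL-29 and 7.08% a lower one. The differences were 1.72 (SE 0.17) for UPK1B, 1.40 (SE 0.06) for UPK3B, 0.81 (SE 0.08) for GATA3, 0.77 (SE 0.07) for PPARG and 1.58 (SE 0.06) for ELF3, on the log2 scale. ELF3 is the member that passed the threshold in both lines with opposite signs. Its fall in 5637 (log2 −0.38) did not pass when tested against a 1.5-fold change. For UPK1B, both lines fell, and the 5637 libraries fell further from a level 51.4-fold lower.

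FOXA1 had a log2 difference of 0.51 (SE 0.09), which missed the threshold here and passed it without CAL-29 siCtrl replicate 1 (0.52) and with total counts (0.63), no filter on low counts (0.52), DESeq2 (0.50) and the likelihood ratio test (0.51). GRHL3 had a log2 difference of −0.38 (SE 0.33) and did not pass. Scaling by total counts moved the median of all genes by 0.12 in this contrast, and 72.4% of the calls over all genes were then higher in CAL-29, against 54.9% in the scaling used here.

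**Figure D3:**
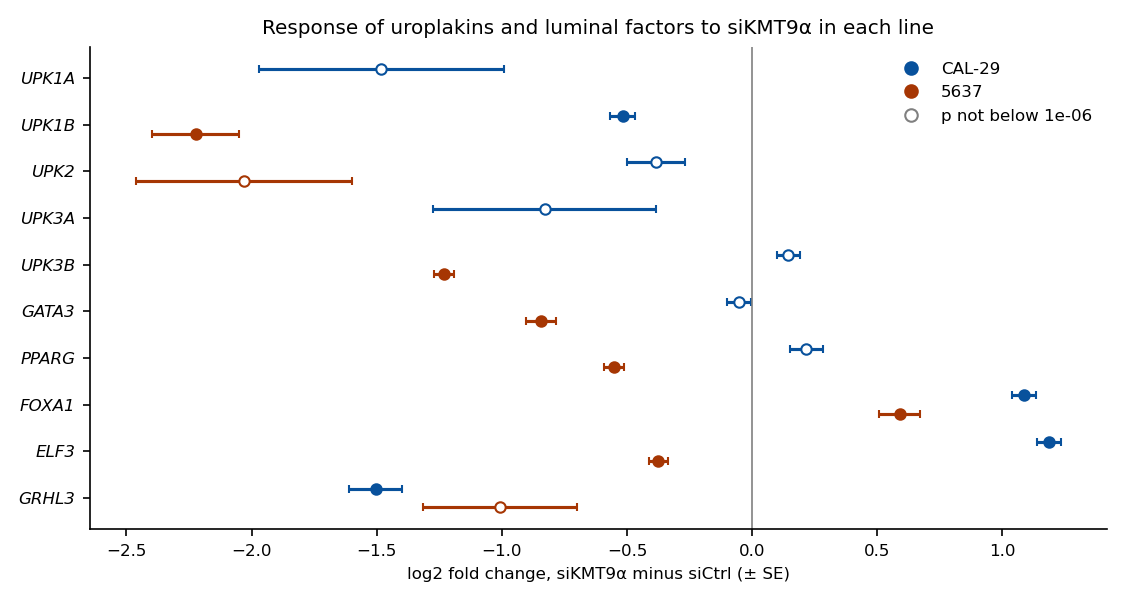
Log2 fold change of siKMT9α against siCtrl (± SE) for each member in CAL-29 (blue) and 5637 (brown), with open symbols where the unadjusted p was not below 1e-06. FOXA1 lies to the right in both lines (1.09 and 0.59), UPK1B to the left in both (−0.52 and −2.22), and ELF3 on either side (1.19 and −0.38). UPK1A and UPK3A were tested only in CAL-29.

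Luminal markers that are not members moved in both directions. Genes described from here on as risen or fallen passed the same threshold, and values in brackets are log2 fold changes. The shares of all tested genes beside which the counts stand were 14.9% higher and 15.0% lower in CAL-29, and 17.9% higher and 17.5% lower in 5637. In CAL-29, 3 of 17 tested luminal markers rose and 5 fell (median log2 −0.17, against −0.02 over all genes). GPX2 (log2 0.81), TMPRSS2 (0.81) and VGLL1 (0.77) rose, while the simple keratins KRT8 (−1.45) and KRT18 (−1.31) and the surface antigen gene CD24 (−0.91) fell. In 5637, 0 of 13 rose and 7 fell (median −0.61, against −0.01 over all genes), led by ADIRF (−2.18), FGFR3 (−1.80), the receptor tyrosine kinase gene often mutated in luminal papillary tumors, and KRT7 (−0.96).

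Basal markers fell in CAL-29. There, 12 of 16 tested fell and 0 rose (median −0.98). KRT16 (log2 −3.97), KRT6B (−2.61) and KRT6A (−1.94) fell most, and their keratins mark basal and squamous cells. In 5637, 6 of 16 rose and 4 fell (median 0.17), with KRT6B at 0.91 and DSG3, a desmosomal cadherin, at 0.76 up and the integrin gene ITGA6 at −0.86 down. The response differed in 11 of the 16, each lower in CAL-29 than in 5637, where 7.08% of all tested genes had a lower response in CAL-29. Under siCtrl the sum of the basal markers was between 6218 and 6612 CPM over the 6 libraries of both lines, but the single genes differed. Of the 16, 6 were higher in CAL-29 and 6 lower, where 26.8% and 28.2% of all tested genes were. KRT16 was higher by a log2 of 2.48 and COL17A1 lower (−3.68). In CAL-29 siKMT9α the sum was between 3384 and 3518 CPM.

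**Figure D4:**
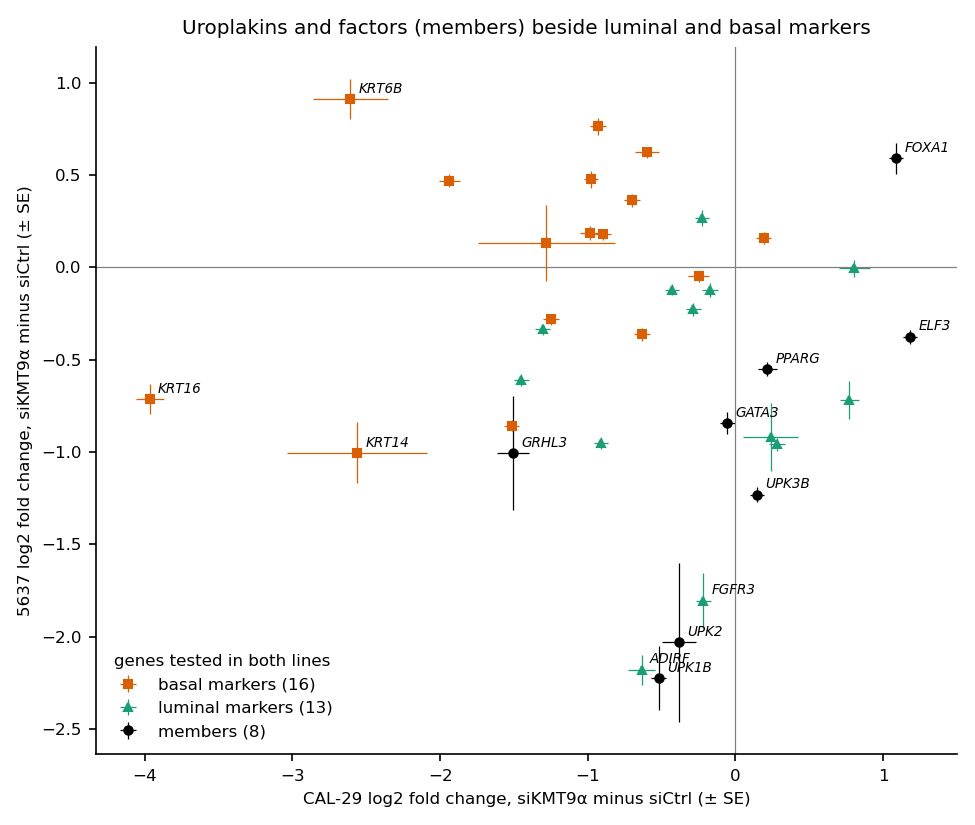
Log2 fold change in CAL-29 (horizontal axis) against 5637 (vertical axis), siKMT9α minus siCtrl, with SE bars, for the members (circles), luminal markers (triangles) and basal markers (squares) tested in both lines. Most basal markers lie left of 0, KRT16 farthest at −3.97, and most members and luminal markers lie below 0 on the vertical axis.

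Other epithelial regulators included 3 that rose and 3 that fell of 18 tested in CAL-29, and 7 that rose and 1 that fell of 19 in 5637. The CAL-29 counts were near the shares of all genes, 14.9% higher and 15.0% lower. EHF, an ETS factor related to ELF3, rose in CAL-29 by a log2 of 1.55, from 49.7 to 147 CPM on average, and in 5637 by 0.70. ELF3 rose in the first line and fell in the second. KLF5, a Krüppel-like factor, rose in both lines (1.09 and 0.93), and KLF4 rose in 5637 (1.09). OVOL1 (−1.15), RARA (−0.65) and GRHL1 (−0.61), the latter a Grainyhead factor like GRHL3, fell in CAL-29, and the retinoic acid receptor gene RARG fell in 5637 (−0.94).

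Among 18 genes that act with PPARG or are known targets of it, 3 rose and 1 fell of 14 tested in CAL-29, and 5 rose and 3 fell of 15 in 5637, where 14.9% and 15.0% of all genes rose and fell in CAL-29 and 17.9% and 17.5% in 5637. RXRA, the partner with which PPARG binds DNA, rose in both lines, by 1.04 in CAL-29 and 0.73 in 5637. PDK4, a kinase of fuel choice that PPAR receptors induce, fell in 5637, from 3.43 to 0.39 CPM (log2 −3.09), and the fatty acid oxidation gene CPT1A (−0.62) fell there as well. The lipid droplet coat gene PLIN2 (0.59 in CAL-29 and 0.39 in 5637) and the coactivator gene PPARGC1B (1.22 and 0.44) rose in both lines.

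Of 18 tetraspanins, traffic genes and a uroplakin-like gene, 4 rose and 6 fell of 17 tested in CAL-29, and 4 rose and 5 fell of 15 in 5637, against the same shares of all genes (14.9% and 15.0%, and 17.9% and 17.5%). MAL, a raft protein of apical traffic in umbrella cells, fell in CAL-29 from 6.26 to 0.67 CPM on average (log2 −3.22). Of the tetraspanin genes, CD9 fell in both lines (−0.79 in CAL-29 and −1.06 in 5637), and CD82 rose in CAL-29 (1.34). UPK3BL1, the uroplakin-like gene, fell in CAL-29 (−0.51) and rose in 5637 (0.43), opposite to UPK3B in 5637.

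The epithelial identity genes fell in both lines. In CAL-29, 7 of 8 fell and 0 rose (median −0.75), and in 5637 6 fell and 1 rose (median −0.44). Of 10 mesenchymal markers, 3 of 7 tested fell in CAL-29 (VIM −4.84, COL1A1 −3.33, CDH2 −2.13), where the summed level went from between 303 and 316 CPM to between 48.7 and 49.5 CPM. In 5637, 3 fell (COL1A1 −3.16, COL1A2 −1.52, CDH2 −0.43) and VIM rose (0.67), with summed levels between 943 and 964 CPM under siCtrl and 764 and 779 CPM under siKMT9α. The part of these marker changes in the members' values was not tested.

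The genes with the pattern most like each member over the 12 libraries, by the root mean square (RMS) difference of centred log2 (CPM + 0.5), were mostly genes outside the lists. For UPK1B these were EEF1A2 (RMS 0.44), COL4A4 (0.54) and ACSL1 (0.55), and for UPK3B they were INS-IGF2 and IGF2, which share reads (0.10 each), and NUBPL (0.12). GATA3 was nearest to DYRK2 (0.096), PPARG to GUSB (0.073), FOXA1 to SDC2 (0.19), ELF3 to IKZF2 (0.13) and GRHL3 to ARL15 (0.25). For UPK2 it was EDIL3 (0.058), with at most 23.5 counts of UPK2 in a 5637 library. In no case was another member among the nearest 3.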

How the data were processed

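RNA of 12 libraries of CAL-29 and 5637 cells was analysed, 3 per group. Per the labels and the study's methods, the authors aligned reads to hg19 with STAR and counted them per transcript with Homer. The deposited values are estimated counts in steps of 0.5 (37.3% not whole), not normalized, and were rounded. The authors' own columns of p-values, adjusted p-values and log2 fold changes were deposited beside them and not used. The labels call the knockdown groups only siRNA and the columns si270; that the target is KMT9α comes from the study's text, and replicate numbers follow the sample titles. Both lines are labelled wild type in genotype.

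For each of 23064 symbols the transcript with the most counts in the libraries of a fit was taken from 37400 rows. These rows differed between lines for PPARG, UPK3B and GRHL3, and CPM values are of the row with the most counts over all 12 libraries. Each fit used edgeR 4.0.16 (TMM scaling, filterByExpr, quasi-likelihood F test) on all genes, with adjusted p-values by Benjamini-Hochberg. Following the study's methods, a gene passed when its unadjusted p was under 1e-06. The test was run within each line on 6 libraries, between the siCtrl groups, and as a difference of responses on all 12 libraries. SE is the log2 fold change over the root of F. CPM is scaled by TMM over 12 libraries. Lengths are of GENCODE canonical transcripts, since the tables give none. Counts of 3 or fewer per library were taken as the floor, and intervals of counting ratios are exact (Clopper-Pearson) and cover counting error only. Copies were searched with BLAST+ 2.17.0 (at least 95% identity over 100 bases). The fits were tested on simulated data.

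The members and gene lists were chosen with earlier results of these data known. Named genes are the members, N6AMT1, at most the 3 largest rises and falls per list and comparison past the threshold, and the nearest 3 genes to each member of at least 1 CPM. Except for CDH5, genes of a list with a group of the comparison at or under the floor were left unnamed, as were some nearest genes. For 1 of the genes counted in the lists no values are reported here. UPK3BL is listed in the tables as UPK3BL1. Alternatives were other scalings, filters, tests (DESeq2 1.42.0), thresholds, transcript sums, a replicate block and each library left out.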

Additional observations from a re-analysis of the deposited data

Results flagged for a closer look

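For 5 members the response to siKMT9α differed between the lines by a test of the difference itself, edgeR's quasi-likelihood test of the interaction over 12 libraries. The log2 difference, CAL-29 response minus 5637 response, was 1.72 for UPK1B (edgeR adjusted p = 7.59e-10), 1.40 for UPK3B (9.60e-17), 0.81 for GATA3 (4.60e-10), 0.77 for PPARG (1.59e-10) and 1.58 for ELF3 (1.44e-18). For ELF3 the signs in the lines were opposite, with all 3 knockdown libraries above the controls in CAL-29 and all 3 below them in 5637. For UPK1B the fall was larger in 5637, at 34 counts per library on average under siKMT9α. No group had 4 or more libraries, so the members' values were not tested for a single library far from its group.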

How the results depend on the processing

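The number of members called was 4 in CAL-29, 6 in 5637, 7 between the lines and 5 for the difference of responses. It moved by more than 1.5 times under a pair of alternatives. At an adjusted p below 0.05 it was 8 of 10 in CAL-29 (4 higher and 4 lower), where 10206 of all 14682 genes tested passed. With edgeR's test against a 1.5-fold change it was 2 in 5637 and 3 for the difference of responses. That test lost GATA3, PPARG, FOXA1 and ELF3 in 5637, and GATA3 and PPARG for the difference of responses. It also lost UPK1B in CAL-29, where 3 members then passed (2 higher and 1 lower), and ELF3 between the lines. With each library left out in turn, the counts were 4 to 4 in CAL-29, 5 to 6 in 5637, 6 to 8 between the lines and 5 to 6 for the difference of responses. The sign turned for GATA3 in CAL-29 with total counts (log2 0.0257) and for the difference of responses of UPK1A without 5637 siKMT9α replicate 2 (1.08, within −3.39 to 1.08 over the libraries left out), both short of the threshold, and the cause was not tested. Of 480 values of single genes under settings other than leaving out a library, 451 kept direction and side of the threshold, and of 282 with a library left out, 276 did. With the replicate number as a block, the counts were 4, 6, 8 and 6, since UPK1A between the lines (4.77) and the difference of responses of FOXA1 (0.51) then passed. Deviations of same-numbered libraries correlated by 0.20, 0.04 and 0.07 in CAL-29 and 0.20, 0.01 and −0.01 in 5637. Those of siCtrl 2 with siKMT9α 3 and of siCtrl 3 with siKMT9α 2 correlated by 0.04 and 0.14 in CAL-29. In 5637 these were 0.11 and 0.12. The remaining pairs lay between −0.18 and −0.08 in CAL-29 and between −0.12 and −0.10 in 5637. The block followed the numbers of the sample titles, and pairing under another numbering was not tested. Depth limits UPK1A, UPK2, UPK3A and GRHL3 in 5637, where a library held at most 53.5 counts of each.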
